A study of Mus musculus with 8 samples.

Results

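The KDEL receptors and the main chaperones of the endoplasmic reticulum (ER) were described in the most distal colon of mice after appendicitis and appendicectomy. The set holds 10 genes: the receptors Kdelr1, Kdelr2 and Kdelr3, and the chaperones and folding enzymes Hspa5, Hsp90b1, Calr, Canx, Pdia4, Pdia6 and Sdf2l1. A gene was measured through each probe set whose only annotated symbol was that gene, which gave 10 probe sets for 9 of the 10 genes, among 18154 such probe sets for 16645 genes. Pdia4 had 2 probe sets, and no probe set was named for Kdelr2, which was not analysed here. The genes were selected on values of these same arrays, with the difference between the operated groups known. That difference is therefore described for them and not tested.

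Proteins that work inside the ER carry a short retrieval signal at their C terminus, of which KDEL is the best known form. Those that leak to the Golgi are bound there by a KDEL receptor and carried back to the ER in vesicles coated with COPI. When unfolded protein builds up in the ER, the sensors Ire1, Perk and Atf6 start the unfolded protein response, which raises transcription of many chaperone genes. In colon, this machinery is most heavily used by secretory cells, such as mucus-making goblet cells and antibody-making plasma cells, and by collagen-making fibroblasts.

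All mice were males of the inbred strain BALB/c, 5 weeks old. The 4 AA arrays held colon of mice given appendicitis at the caecal lymphoid follicles and an appendicectomy after 1 week. The 4 SS arrays held colon of mice with 2 sham laparotomies, also spaced by 1 week, so neither group was unoperated. The labels name 2 batches of arrays, each with 2 AA and 2 SS arrays. Batch 1 held replicates 1 and 2 of both groups, and batch 2 held replicates 3 and 4. Each array held 1 colon sample, labelled from 100 ng of RNA, and a harvest day appears only in the title of a deposited gene set table, which names 3 days after appendicectomy.

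Values are the deposited log2 expression values, in which a difference of 1 is a doubling. They had the mean of each batch already removed, which leaves differences between arrays of the same batch as they were. Any 2 arrays correlated at 0.975 to 0.996 across probe sets, and arrays give no read depth, so their number limits the precision. The colonocyte markers Slc26a3 (13.24 ± 0.04 in AA, 13.17 ± 0.04 in SS, SD, n = 4 each) and Car1 (13.79 ± 0.09 in AA, 13.69 ± 0.12 in SS, SD, n = 4 each) were bright in both groups. AA replicate 2 stood apart on some markers of position along the gut. Hoxd13, a marker of the most distal gut, read 6.54 in it and 8.82 to 10.62 in the other 7 arrays. Hoxb13, another such marker, read 8.23 in it and 9.63 to 10.61 elsewhere, and Alpi, an alkaline phosphatase of the small intestine, read 8.90 in it and 5.36 to 6.59 elsewhere. Hoxd10 and Hoxd11 were also lowest in AA replicate 2, but not all such markers followed. Hoxa13 read 8.31 in AA replicate 2, inside the range of 7.88 to 8.5 elsewhere. Fabp6, of the small intestine, read 5.34 in AA replicate 2, below the 5.56 to 6.21 elsewhere. Apoa4 read 5.73 in it, below the 5.87 to 6.22 elsewhere. Because of the markers that differed, the differences of Kdelr3, Sdf2l1 and the chaperones are also given without AA replicate 2. In bulk tissue, fewer cells of a type and less RNA per cell cannot be told apart.

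Kdelr3 and Sdf2l1 stood above their SS level in every AA array, while the most abundant chaperones and Kdelr1 overlapped between the groups. The difference, the AA mean minus the SS mean with the standard error (SE) of limma, was 0.52 ± 0.08 for Kdelr3 and 0.37 ± 0.09 for Sdf2l1, or 1.43 and 1.30 times the SS level. Of the 9 genes, with Pdia4 taken by its brighter probe set, 8 had a higher mean in AA and 1 a lower one, and quantile normalization, which turned Canx, left 7 higher. Over all probe sets, 51.0% had a positive difference. The median difference of the 9 genes was 0.10, against 0.00 over all probe sets. It was 0.02 without AA replicate 3, 0.22 without AA replicate 4, 0.06 without AA replicate 1 and 0.16 without AA replicate 2, or 0.07 without SS replicate 1 and 0.17 without SS replicate 4, so single arrays set its size. Complete separation, with every AA array above every SS array, was seen for 2 of the 10 member probe sets and for 4.21% of all probe sets. Separation the other way was seen for 1 of the 10, the dimmer probe set of Pdia4, and for 2.18% of all probe sets. As the genes were selected on this contrast, these shares stand side by side and no more is read from them.

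Kdelr3 encodes a KDEL receptor isoform that is induced by ER stress in cultured human cells. It read 7.56, 7.58, 7.62 and 7.53 in AA replicates 1 to 4, against 6.97, 7.14, 7.04 and 7.05 in SS replicates 1 to 4. The AA arrays lay within 0.10 of each other, and the lowest of them was 0.39 above the highest SS array. The means were 7.57 ± 0.04 in AA and 7.05 ± 0.07 in SS (SD, n = 4 each). Batch 1 gave a difference of 0.51 and batch 2 one of 0.53. Leaving out AA replicate 2 gave 0.52, and leaving out other arrays gave 0.49 to 0.56.

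The promoter of Kdelr3 is shown because it held a match to the core of the unfolded protein response element (UPRE, letters TGACGTG), which Xbp1 and Atf6 are known to bind. It spans chr15:79516158-79516457 (GRCm38.p6, plus strand), from 250 bases before to 50 after the annotated start, as RefSeq gives it. The capitals mark the match, which lies on the opposite strand, 29 to 23 bases before the start, and so reads as the reverse complement.
Kdelr3: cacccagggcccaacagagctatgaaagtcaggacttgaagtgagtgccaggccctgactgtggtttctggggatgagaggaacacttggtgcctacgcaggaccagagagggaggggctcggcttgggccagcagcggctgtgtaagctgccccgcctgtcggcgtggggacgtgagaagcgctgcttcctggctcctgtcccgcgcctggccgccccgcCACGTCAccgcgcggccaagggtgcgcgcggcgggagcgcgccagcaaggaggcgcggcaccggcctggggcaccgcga

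Kdelr1, the first receptor of the family to be described in mammals, showed no such separation. It read 9.46, 9.37, 9.17 and 9.37 in AA replicates 1 to 4, against 9.21, 9.36, 9.50 and 9.36 in SS replicates 1 to 4. Its groups overlapped, with the highest value in SS replicate 3 and the lowest in AA replicate 3. The difference was -0.02 ± 0.10 (SE), made of 0.13 in batch 1 and -0.16 in batch 2, and its sign also turned without AA replicate 3 or SS replicate 3. Its promoter held none of the motifs searched, which says only that those letters are absent from the 300 bases.

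Sdf2l1 encodes a small ER luminal protein that works with the cochaperone Dnajb11 and binds Hspa5 complexes. It read 8.07, 8.02, 8.14 and 7.93 in AA replicates 1 to 4, against 7.74, 7.57, 7.57 and 7.76 in SS replicates 1 to 4. Every AA array was above every SS array, with a gap of 0.16 between the nearest. The means were 8.04 ± 0.09 in AA and 7.66 ± 0.10 in SS (SD, n = 4 each), with differences of 0.38 in batch 1 and 0.36 in batch 2. Without AA replicate 2 the difference was 0.38. Its homologue Sdf2, of the same family, differed by 0.01 ± 0.11 (SE), and Dnajb11 by 0.15 ± 0.10, both chosen for this comparison after their values were seen.

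**Figure D1:**
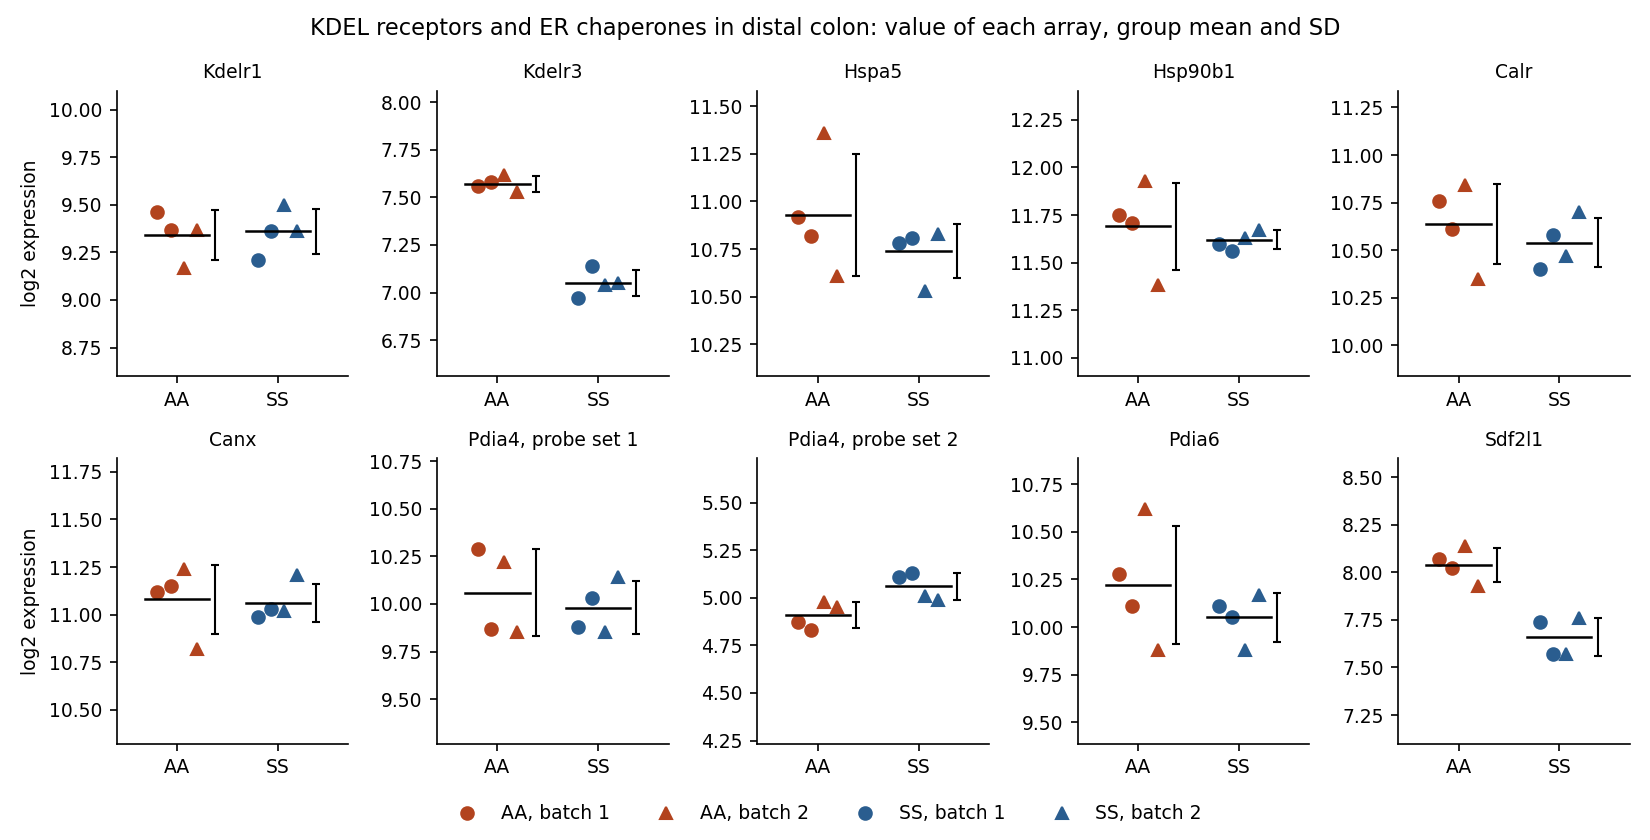
Each panel shows the log2 expression of 1 probe set in the 4 AA arrays (left) and the 4 SS arrays (right), with the group mean and the SD. Kdelr3 and Sdf2l1 have no overlap between the groups, with AA means of 7.57 and 8.04 above SS means of 7.05 and 7.66, while the abundant chaperones overlap and spread more widely in AA.

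Hspa5 encodes BiP, the Hsp70 chaperone of the ER lumen, which binds unfolded chains and holds the stress sensors inactive. It read 10.92, 10.82, 11.36 and 10.61 in AA replicates 1 to 4, against 10.78, 10.81, 10.53 and 10.83 in SS replicates 1 to 4. AA replicate 3 was the highest of the 8 arrays and SS replicate 3 the lowest, both of batch 2, and 2 of the 4 AA arrays lay above all SS arrays. The means were 10.93 ± 0.32 in AA and 10.74 ± 0.14 in SS (SD, n = 4 each), and the difference was 0.19 ± 0.16 (SE). It was 0.02 without AA replicate 3, 0.32 without AA replicate 4 and 0.11 without SS replicate 3, so its size hung on single arrays. Without AA replicate 2 it was 0.23.

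The Hspa5 promoter is shown as the textbook case of a stress-driven chaperone promoter. It spans chr2:34771840-34772139 (GRCm38.p6, plus strand, RefSeq). The first capitals mark a UPRE core, 157 to 151 bases before the start. The next mark both ends of an ER stress response element (ERSE: CCAAT, any 9 bases, CCACG), 65 to 47 bases before the start, to which the factors NF-Y and Atf6 are known to bind.
Hspa5: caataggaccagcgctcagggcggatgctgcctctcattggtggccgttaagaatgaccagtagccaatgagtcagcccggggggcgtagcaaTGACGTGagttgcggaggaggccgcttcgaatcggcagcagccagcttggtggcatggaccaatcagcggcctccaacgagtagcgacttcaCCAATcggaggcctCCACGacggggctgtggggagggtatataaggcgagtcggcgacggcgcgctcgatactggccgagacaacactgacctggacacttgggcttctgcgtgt

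Hsp90b1 encodes GRP94, the Hsp90 chaperone of the ER, which folds integrins and Toll-like receptors. It read 11.75, 11.71, 11.93 and 11.38 in AA replicates 1 to 4, against 11.60, 11.56, 11.63 and 11.67 in SS replicates 1 to 4. Of the AA arrays, 3 lay above all SS arrays and the fourth, AA replicate 4, lay below them all. The means were 11.69 ± 0.23 in AA and 11.62 ± 0.05 in SS (SD, n = 4 each). The difference of 0.08 ± 0.12 (SE) turned to -0.02 without AA replicate 3 and was 0.20 without AA replicate 4. Without AA replicate 2 it was 0.07.

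Its promoter is the one among the 9 with 2 ERSE matches, and it is shown for that reason. It spans chr10:86705395-86705694 (GRCm38.p6, minus strand, RefSeq). The capitals mark both matches, one 212 to 194 bases before the start and one on the opposite strand, 107 to 89 bases before it.
Hsp90b1: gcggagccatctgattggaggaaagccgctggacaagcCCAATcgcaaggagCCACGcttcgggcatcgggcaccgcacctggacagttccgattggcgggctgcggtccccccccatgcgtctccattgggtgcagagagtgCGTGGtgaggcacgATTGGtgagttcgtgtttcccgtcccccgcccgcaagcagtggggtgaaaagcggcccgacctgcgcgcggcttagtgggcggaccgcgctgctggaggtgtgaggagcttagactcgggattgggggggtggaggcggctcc

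Calr and Canx encode calreticulin and calnexin, the soluble and the membrane-bound lectin chaperones that hold glycoproteins until they fold. Calr read 10.76, 10.61, 10.84 and 10.35 in AA replicates 1 to 4, against 10.40, 10.58, 10.47 and 10.70 in SS replicates 1 to 4. Canx read 11.12, 11.15, 11.24 and 10.82 in AA replicates 1 to 4, against 10.99, 11.03, 11.02 and 11.21 in SS replicates 1 to 4. For both genes AA replicate 3 was the highest array and AA replicate 4 the lowest, and the groups overlapped. The Calr difference was 0.10 ± 0.12 (SE), 0.19 in batch 1 and 0.02 in batch 2. It was 0.02 without AA replicate 3, 0.06 without AA replicate 1, 0.05 without SS replicate 1, 0.22 without AA replicate 4, 0.17 without SS replicate 4 and 0.12 without AA replicate 2. The Canx difference was 0.02 ± 0.11 (SE), and it was below 0 with quantile normalization, in batch 2 alone (-0.08), and without AA replicate 2, AA replicate 3 or SS replicate 1.

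Pdia4 and Pdia6 encode disulfide isomerases, which form and rearrange disulfide bonds in the ER. Pdia6 read 10.28, 10.11, 10.62 and 9.88 in AA replicates 1 to 4, against 10.11, 10.05, 9.88 and 10.17 in SS replicates 1 to 4. Its difference was 0.17 ± 0.15 (SE), 0.01 without AA replicate 3, 0.31 without AA replicate 4, 0.10 without SS replicate 3 and 0.22 without AA replicate 2. The brighter Pdia4 probe set read 10.29, 9.87, 10.22 and 9.85 in AA replicates 1 to 4, against 9.88, 10.03, 9.85 and 10.14 in SS replicates 1 to 4. Its groups overlapped, with a difference of 0.08 ± 0.13 (SE), which was -0.01 without AA replicate 1. It was 0.02 without AA replicate 3, 0.03 without SS replicate 3, 0.04 without SS replicate 1, 0.15 without SS replicate 4, 0.16 without AA replicate 2 and 0.17 without AA replicate 4. The dimmer one read 4.87, 4.83, 4.98 and 4.95 in AA replicates 1 to 4, against 5.11, 5.13, 5.01 and 4.99 in SS replicates 1 to 4. There no AA array reached the lowest SS array, with a difference of -0.15 ± 0.08 (SE), so the probe sets of Pdia4 disagree in sign. The dimmer one lay under the median level of all tested probe sets, 7.13, and the other 9 member probe sets had means over the 8 arrays above it. Kdelr3 did so through its AA arrays, since 3 of its 4 SS arrays were under that level.

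**Figure D2:**
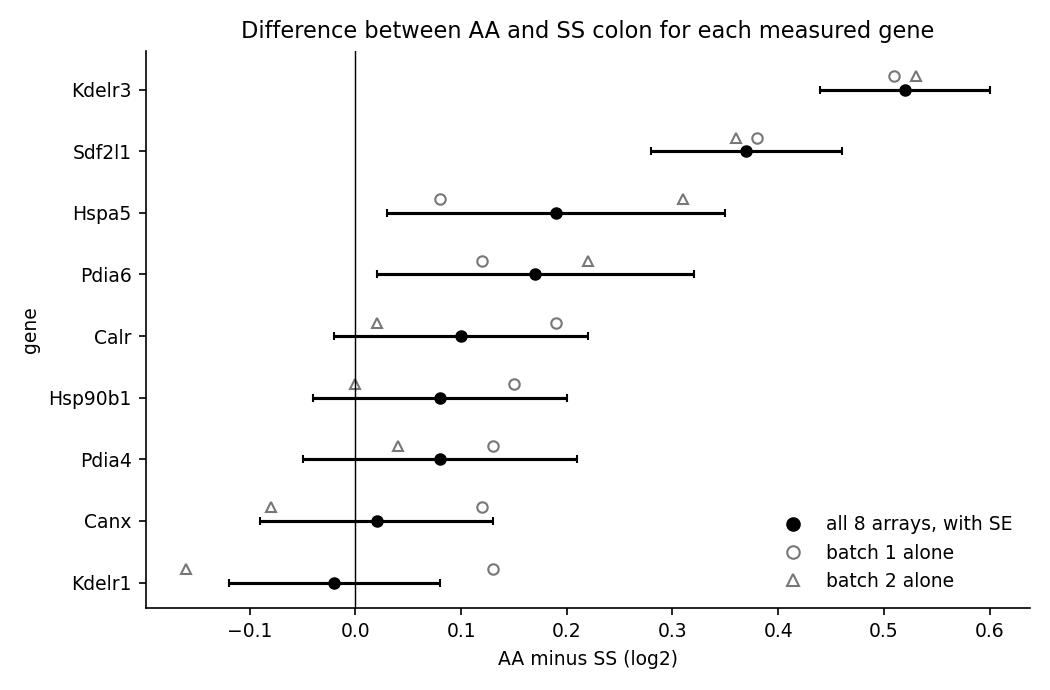
The AA minus SS difference in log2 expression of each of the 9 measured genes, with its standard error from limma and the difference within each batch. Kdelr3 (0.52) and Sdf2l1 (0.37) have nearly equal values in both batches, and Kdelr1 (0.13 in batch 1, -0.16 in batch 2) and Canx (0.12 in batch 1, -0.08 in batch 2) change sign between them.

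Whether the differences depended on the batch is a measure other than the difference known at the selection. A gene with little spread within its groups has little room for such dependence, so the measure is not fully separate. Batch dependence was tested by the interaction of group and batch in limma over all 18154 probe sets. None of the 9 genes passed. Their adjusted p from limma ranged from 0.561 for Kdelr1 to 0.979 for Kdelr3, and 0 of 9 had an unadjusted p under 0.05, against 9.46% of all probe sets. The interaction, batch 2 minus batch 1, was 0.01 ± 0.16 (SE) for Kdelr3 and -0.02 ± 0.19 for Sdf2l1, the closest to 0. It was -0.30 ± 0.18 for Kdelr1, the farthest from 0. With 2 arrays per group and batch, these intervals are wide, and no probe set of the array passed at 0.05 (smallest adjusted p from limma 0.524).

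Arrays of the same group differed in their chaperone levels, and within both pairs of batch 2 all 7 genes went in the same direction. In the AA pair of batch 2, replicate 3 lay above replicate 4 for 7 of 7 chaperone genes, by a median of 0.49. The gap was 0.75 for Hspa5, 0.74 for Pdia6, 0.55 for Hsp90b1, 0.49 for Calr, 0.42 for Canx, 0.38 for Pdia4 and 0.21 for Sdf2l1. For the receptors it was 0.10 for Kdelr3 and -0.20 for Kdelr1. Over all probe sets the median gap between these arrays was -0.03, and 4.21% had a gap above the chaperone median. In the SS pair of batch 2, replicate 3 lay below replicate 4 for 7 of 7 chaperones, by a median of -0.23 and a range of -0.31 to -0.04, against 0.01 over all probe sets. Of all probe sets, 52.1% were higher in SS replicate 3 than in SS replicate 4, and 9.14% had a gap below the chaperone median.

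The pairs of batch 1 spread less. AA replicate 1 lay above AA replicate 2 for 6 of 7 chaperones, with a median of 0.09, and SS replicate 1 lay above SS replicate 2 for 3 of 7, with a median of -0.03. Of all probe sets, 51.9% were higher in AA replicate 1 than in AA replicate 2, and 42.1% in SS replicate 1 than in SS replicate 2. The mean of the centred chaperone values was 0.15, 0.02, 0.31 and -0.19 in AA replicates 1 to 4, against -0.09, -0.07, -0.17 and 0.05 in SS replicates 1 to 4. The range over AA arrays thus covered the whole range over SS arrays. Of the 9 genes, 7 had their highest value in AA replicate 3, and 4 their lowest in AA replicate 4. Arrays of different batches are compared here on values with batch means removed.

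**Figure D3:**
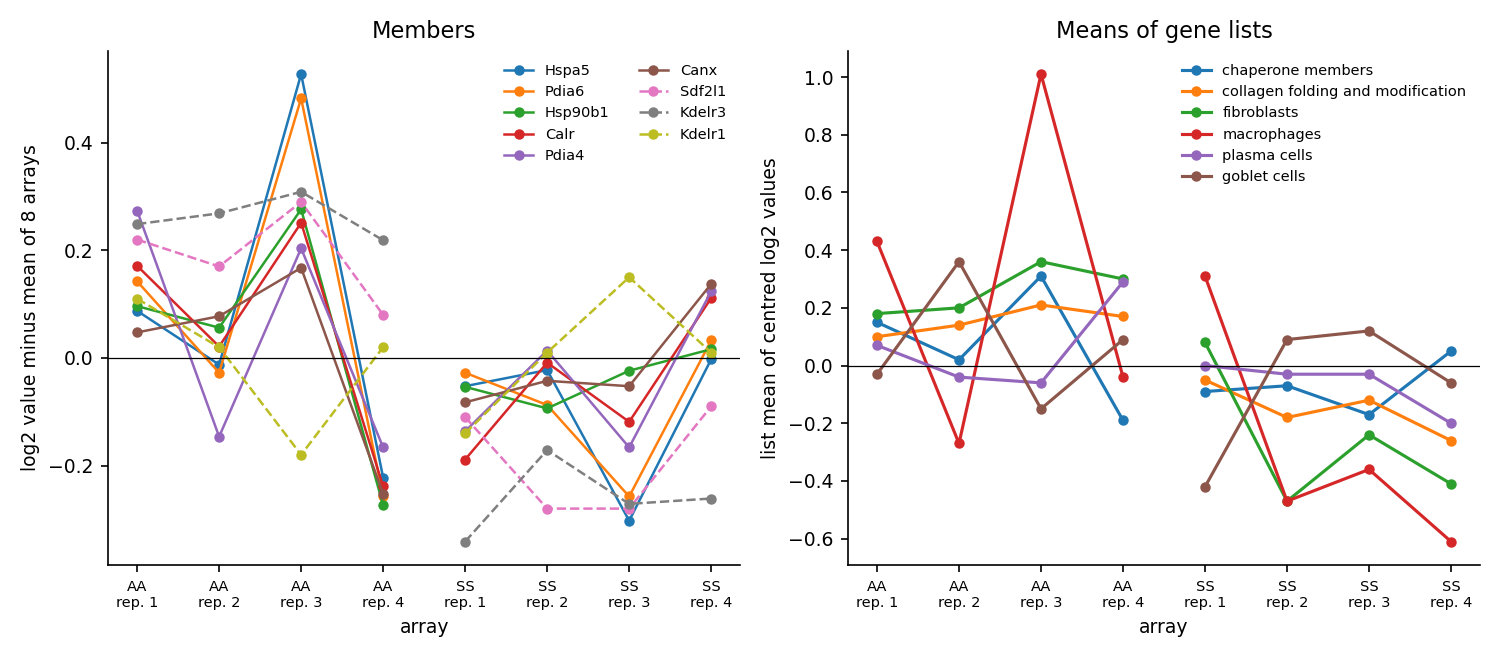
Left, log2 values of the member genes in each array minus the mean of the 8 arrays. Right, means of gene lists on the same scale. Lines only link the values of 1 gene or list, and replicates have no order. The chaperone mean is highest in AA replicate 3 (0.31) and lowest in AA replicate 4 (-0.19), while Kdelr3 is level across the 4 AA arrays.

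Markers of other cells also moved between these arrays. The 9 macrophage markers measured, which include Adgre1 and C1qa, were all higher in AA replicate 3 than in AA replicate 4, by a median of 1.07. Their list mean was 0.43, -0.27, 1.01 and -0.04 in AA replicates 1 to 4, against 0.31, -0.47, -0.36 and -0.61 in SS replicates 1 to 4. In the SS pairs they did not run with the chaperones. SS replicate 1 was above SS replicate 2 by a macrophage median of 0.73, where the chaperones gave -0.03, and SS replicate 3 was above SS replicate 4 by 0.24, where the chaperones gave -0.23. Plasma cell markers ran the other way in the AA pair, with 1 of 9 higher in replicate 3 and a median of -0.30. Of the 8 goblet cell markers, 2 were higher in AA replicate 3, with a median of -0.14. Smooth muscle markers ran opposite to the chaperones in both pairs of batch 2, with 0 of 10 higher in AA replicate 3 (median -0.55) and 10 of 10 higher in SS replicate 3 than in SS replicate 4 (0.37). Mesothelium markers were higher in AA replicate 3 for 7 of 7 (0.51) and adipocyte markers for 5 of 6 (0.90), and both lists were also higher in SS replicate 3 than in SS replicate 4 (0.80 and 0.63), where the chaperones were lower. The part of these cells in the chaperone values was not tested.

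The 12 fibroblast markers were all higher in AA, with a median difference of 0.45 that was 0.28 for batch 1 and 0.64 for batch 2. At an unadjusted p under 0.05 in limma 11 of the 12 were higher, against 5.38% of all probe sets. After adjustment 0 passed (smallest adjusted p from limma 0.264). The list mean was 0.18 to 0.36 in the AA arrays and -0.47 to 0.08 in the SS arrays, so the list mean separated the groups. Taken singly, 4 of the 12 markers had every AA array above every SS array, against 4.21% of all probe sets. Col1a1, the first marker on the list, encodes a chain of type I collagen and averaged 10.89 ± 0.19 in AA and 10.12 ± 0.34 in SS (SD, n = 4 each). Within SS, Kdelr3 was lowest in replicate 1 (6.97), the SS array with the highest fibroblast mean (0.08). Sdf2l1 was not lowest there, with 7.74 against 7.57, 7.57 and 7.76 in SS replicates 2 to 4. The part of fibroblast content in the difference of Kdelr3 and Sdf2l1 was not tested.

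Other marker lists, given for the same reason, had 10 of 10 smooth muscle genes higher (median 0.36), 9 of 9 macrophage genes (0.62), 6 of 7 mesothelium genes (0.81), 11 of 13 colonocyte genes (0.11), 6 of 8 goblet cell genes (0.05) and 6 of 9 plasma cell genes (0.15). Lower in AA were 7 of 7 B cell genes (median -0.49), 6 of 6 adipocyte genes (-0.79), 5 of 7 genes of distal colon position (-0.04) and 7 of 9 genes of small intestine, stomach and liver (-0.10). Several of these medians differed between the batches. For batch 1 and batch 2 they were 0.23 and 1.01 for macrophages, and 0.09 and 1.5 for mesothelium. They were -1.48 and -0.09 for adipocytes, -0.94 and -0.36 for B cells, and 0.54 and 0.21 for smooth muscle. None of the smooth muscle, macrophage or mesothelium genes had every AA array above every SS array. Of the 7 B cell genes, 4 had every AA array below every SS array. Some lists were dim. Above the median level of all tested probe sets lay 0 of 7 B cell, 3 of 6 adipocyte and 3 of 9 plasma cell genes. So did 1 of 9 genes of small intestine, stomach and liver. None of the genes on these lists passed limma's test after adjustment over all probe sets. At an unadjusted p under 0.05 the lists held 5 smooth muscle, 4 mesothelium, 3 macrophage and 2 colonocyte genes higher and 6 B cell genes lower. Over all probe sets, 5.38% were higher and 2.70% lower at that p.

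Promoter letters are a feature of the members that the array values did not enter. The members were listed as ER chaperones and receptors, though, and Hspa5 is the textbook case of a stress-driven chaperone promoter. The shares of promoters with stress elements are therefore described and not tested. RefSeq gives a promoter for all 9 measured genes, among 32851 in the table. The ERSE, searched on both strands, was in 5 of the 9 (Hspa5, Hsp90b1, Calr, Canx and Pdia6) and in 39 of all promoters, or 0.119%. The matches are written in the direction of the motif, to let the 9 middle bases be compared.
Hspa5: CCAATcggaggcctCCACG
Hsp90b1, same strand as the gene: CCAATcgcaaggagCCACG
Hsp90b1, opposite strand: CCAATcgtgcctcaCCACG
Calr, opposite strand: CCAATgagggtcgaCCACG
Canx: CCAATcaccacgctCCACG
Pdia6: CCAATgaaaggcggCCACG

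The outer 5 bases at each end, in capitals, are fixed by the search, and the 9 bases between them are not the same in any pair of the 6 matches. The match lies at chr8:84847075-84847093 for Calr, chr11:50325800-50325818 for Canx and chr12:17266491-17266509 for Pdia6 (GRCm38.p6). In bases before the start this is 162 to 144 for Calr, 145 to 127 for Canx and 98 to 80 for Pdia6. Kdelr3 and Sdf2l1, the genes whose groups separated, held no exact match to the ERSE in these windows, and neither did Kdelr1 or Pdia4. Only exact letters were searched, so a variant of the element would be missed.

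ERSE-II (ATTGG, any 1 base, CCACG) was in 0 of the 9 promoters and in 12 of all, or 0.0365%. The UPRE core was in 2 of the 9, Hspa5 and Kdelr3, and in 2.01% of all promoters. CCAAT alone was in 7 of the 9 against 37.4% of all, and CCACG alone in 8 of the 9 against 32.8%. The ERSE contains CCAAT and CCACG, so these counts overlap, and a UPRE can overlap CCACG. Sdf2l1 held both short motifs, at other spacings. The promoters were compared as letters, and a match is not a measured binding site.

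**Figure D4:**
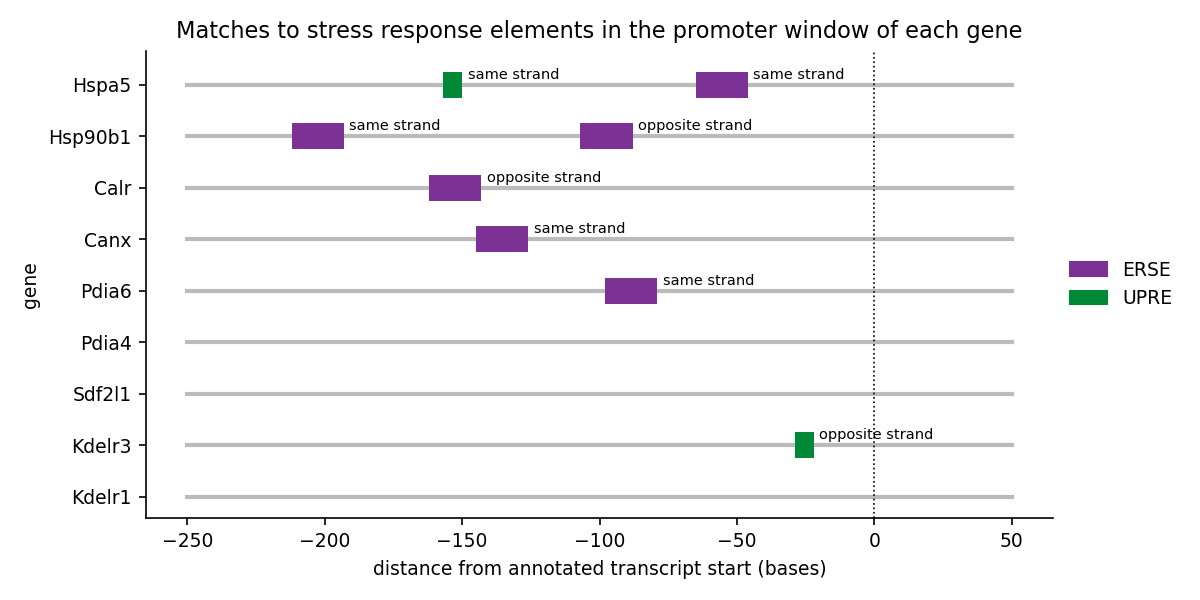
Positions of ERSE and UPRE matches relative to the annotated transcript start in the 9 member promoters (250 bases before to 50 after). The 6 ERSE matches lie in 5 chaperone promoters between 212 and 47 bases before the start, and the UPRE cores lie in Hspa5 (157 to 151 before) and Kdelr3 (29 to 23 before).

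Among the 9 members, the 5 with an ERSE were the 5 with the widest gaps between AA replicates 3 and 4. This was seen with both the gaps and the matches known, and was not tested. Another 32 genes held an ERSE in the promoter, of which 12 were measured. Their mean levels ran from 5.69 for Tdrd9 to 10.51 for Dnajc3, with several under the median level of all tested probe sets, 7.13. Of these 12, 4 were higher in AA replicate 3 than in AA replicate 4, with a median gap of -0.03, while 45.0% of all probe sets were higher in AA replicate 3, and 7 were higher and 5 lower in AA than in SS, with a median difference of 0.03.

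The genes with array profiles nearest to Kdelr3 and to Hspa5 were found by the root mean square difference of centred values over the 8 arrays. For Kdelr3 they were Gla (0.0583), Ccdc3 (0.0687), Matn2 (0.0739), Ehd1 (0.0767) and Rgs4 (0.0810). Gla, a lysosomal galactosidase, read 8.19 to 8.34 in AA arrays and 7.73 to 7.97 in SS arrays. For Hspa5 they were Pdia6 (0.0445), Tap2 (0.0616), Trim21 (0.0639), Sik1 (0.0650) and Nucb2 (0.0750). Pdia6 is itself a member, and Tap2, a peptide transporter of antigen presentation, read 8.53, 8.37, 8.89 and 8.32 in AA replicates 1 to 4, against 8.32, 8.45, 8.11 and 8.37 in SS replicates 1 to 4. Like Hspa5 it was highest in AA replicate 3 and lowest in SS replicate 3. This likeness, and the separation of the groups for Gla, follow from the search for near profiles.

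The rest of the early secretory pathway was described through 10 lists, of which 219 of 249 genes were measured. Of these 219 genes, 159 were higher in AA and 60 lower, with a median difference of 0.06, and 0 passed limma's test after adjustment (smallest adjusted p 0.238). At an unadjusted p under 0.05, 31 of the 219 were higher, or 14.2%, against 5.38% of all probe sets, and 0 were lower, against 2.70% of all. Collagen folding supplied 9 of the 31. Without that list, 22 of 206 were higher, or 10.7%. Most pathway genes were bright, with 194 of the 219 above the median level of all tested probe sets. With only probe sets above that level kept, 24 of the 194 were higher at that p, against 657 of 9077 probe sets. There 56.0% of probe sets had a positive difference. Taken within batches, the median difference of the 219 genes was 0.15 for batch 1 and 0.00 for batch 2. The mean of their centred values was 0.10, 0.05, 0.04 and -0.01 in AA replicates 1 to 4, against -0.16, 0.01, 0.00 and -0.03 in SS replicates 1 to 4, so SS replicate 1 stood apart. Without that array 123 were higher and 96 lower, with a median difference of 0.01. It lay below SS replicate 2 for most genes of several lists, being higher for 0 of 22 genes of ER-associated degradation and 3 of 29 of the COPI list. Leaving out any other array gave a median of 0.04 to 0.10, the lowest without AA replicate 1 and the highest without AA replicate 4.

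Collagen folding and modification was the list with the highest median. Its 13 measured genes were all higher in AA, with a median difference of 0.24 that was 0.21 within batch 1 and 0.29 within batch 2. In 7 of the 13 every AA array was above every SS array, against 4.21% of all probe sets. Plod2, a lysyl hydroxylase of collagen, read 8.05, 8.35, 8.33 and 7.99 in AA replicates 1 to 4, against 7.40, 7.53, 7.62 and 7.41 in SS replicates 1 to 4. Its groups did not overlap, and the difference was 0.69 ± 0.11 (SE, adjusted p 0.238 by limma). Rcn3, a calcium-binding ER protein, differed by 0.74 ± 0.18 (adjusted p 0.304 by limma), and Sparc, a collagen-binding secreted protein, by 0.67 ± 0.19 (0.430). The list mean of the fibroblast markers separated the same arrays, and their part in this list was not tested.

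Among the other ER luminal chaperones and cochaperones, 22 of 26 genes were higher and 3 had an unadjusted p under 0.05, with a median of 0.11. The 3 were Fkbp14 (0.48 ± 0.11, SE), Serpinh1 (0.43 ± 0.11) and Fkbp7 (0.47 ± 0.16), of which Serpinh1 is the collagen chaperone Hsp47 and Fkbp14 a prolyl isomerase that acts on collagen. Cofactors of Hspa5 were nearer to 0, chosen for mention after their values were seen. Hyou1, its nucleotide exchange factor, differed by 0.10 ± 0.11, and Dnajc3 by 0.04 ± 0.11. Both followed Hspa5 between AA replicates 3 and 4, with gaps of 0.44 for Hyou1 and 0.30 for Dnajc3. Dnajb9, another cochaperone, differed by -0.05 ± 0.11 with a gap of -0.09.

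Of the disulfide isomerases and oxidases, 14 of 20 were higher, with a median of 0.07. The 3 at an unadjusted p under 0.05 were Qsox1 (0.29 ± 0.08, SE), a sulfhydryl oxidase, Prdx4 (0.37 ± 0.11), a peroxiredoxin of the ER, and Txndc12 (0.34 ± 0.12). Qsox1 read 8.93, 8.96, 8.91 and 8.97 in AA replicates 1 to 4, against 8.66, 8.65, 8.63 and 8.67 in SS replicates 1 to 4, with no overlap. The abundant isomerases Pdia3 (-0.03 ± 0.12) and P4hb (0.12 ± 0.10), chosen after their values were seen, had AA replicate 3 above AA replicate 4 by 0.41 and 0.28, like Pdia6.

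The sensors and factors of the unfolded protein response gave 13 of 20 higher, with a median of 0.06. Creb3 (0.32 ± 0.08, SE), a membrane-bound transcription factor, Ppp1r15b (0.27 ± 0.09), a phosphatase subunit that acts on eIF2, and Creb3l3 (0.36 ± 0.14) had an unadjusted p under 0.05. The best known markers of the response, chosen here by name after their values were seen, did not. Xbp1 differed by 0.19 ± 0.09, Atf4 by 0.09 ± 0.11, Ddit3 (CHOP) by 0.07 ± 0.13 and Atf6 by 0.03 ± 0.12. Herpud1 differed by -0.08 ± 0.12 and the sensor genes Ern1 and Eif2ak3 by -0.07 ± 0.11 and -0.04 ± 0.15. AA replicate 3 was above AA replicate 4 for 7 of the 20, with a median of -0.06. The array does not measure Xbp1 splicing or protein.

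The calnexin cycle and N-glycosylation list, which serves the same clients as Calr and Canx, had 12 of 19 higher with a median of 0.05. Its 3 genes at an unadjusted p under 0.05 were Mcfd2 (0.27 ± 0.08, SE), a cargo receptor subunit, and the oligosaccharyltransferase subunits Ostc (0.29 ± 0.10) and Ost4 (0.21 ± 0.09). In this list AA replicate 3 was above AA replicate 4 for 15 of 19, with a median of 0.23, and SS replicate 3 was above SS replicate 4 for 4 of 19, with a median of -0.13. Both signs match those of the chaperones. ER-associated degradation had 15 of 22 higher, a median of 0.04 and 0 genes at an unadjusted p under 0.05 by limma. Its first 3 genes were the ubiquitin ligase gene Syvn1 (0.16 ± 0.08, SE), the ubiquitin-conjugating enzyme gene Ube2g2 (0.14 ± 0.09) and Faf2 (0.13 ± 0.10), and AA replicate 3 was above AA replicate 4 for 11 of 22.

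The transport steps around the KDEL receptors gave small differences. Of the COPI coat and retrieval genes, 22 of 29 were higher with a median of 0.06, and 2 had an unadjusted p under 0.05. These were Copz2 (0.44 ± 0.12, SE), a coat subunit isoform, and Tmed3 (0.29 ± 0.11), a p24 cargo receptor, followed by the SNARE Sec22b (0.15 ± 0.09). Copz2 read 8.43, 8.54, 8.48 and 8.66 in AA replicates 1 to 4, against 8.18, 8.08, 8.31 and 7.78 in SS replicates 1 to 4, so its groups did not overlap. Of the COPII and ER exit genes, 16 of 23 were higher with a median of 0.03, and 5 had an unadjusted p under 0.05, among them the GTPase Sar1b (0.27 ± 0.09), the coat subunits Sec13 (0.24 ± 0.08) and Sec24d (0.24 ± 0.09).

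Of the translocon, signal peptidase and signal recognition genes, 17 of 22 were higher with a median of 0.06, and 1 had an unadjusted p under 0.05. That was Ssr4 (0.24 ± 0.10, SE), a subunit of the translocon-associated complex, followed by the receptor subunit Srpr (0.14 ± 0.09) and Ssr3 (0.15 ± 0.09). Chaperones outside the ER, taken for contrast, had 15 of 25 higher with a median of 0.05. Dnaja1 (0.32 ± 0.12), Hspa1a (0.23 ± 0.10) and Dnajb1 (0.29 ± 0.13) came first, and AA replicate 3 was above AA replicate 4 for 21 of these 25, with a median of 0.19.

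**Figure D5:**
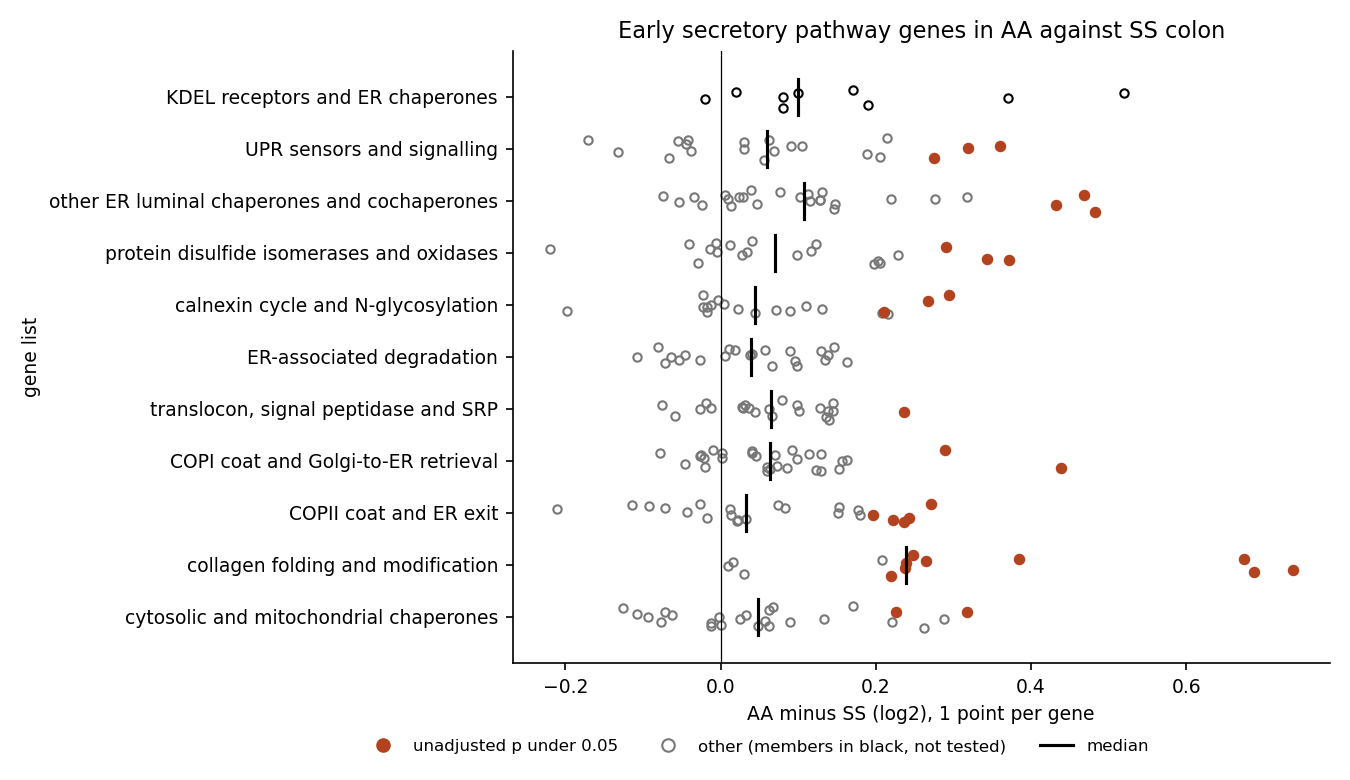
AA minus SS difference in log2 expression, with 1 point per gene, for the members (black) and the 10 pathway lists, with a bar at each median and filled points for pathway genes with an unadjusted p under 0.05 in limma. The collagen folding genes are shifted farthest to the right (median 0.24, 13 of 13 above 0), and the medians of the other lists lie between 0.03 and 0.11, on all 8 arrays.

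The authors' deposited table of gene sets raised in AA holds 266 sets, of which 3 are quoted, chosen by name for their bearing on protein folding and secretion. In the authors' deposited table a protein folding set with 53 enriched genes has a normalized enrichment score of 2.07 with a q-value of 0.007. The same authors' deposited table lists a set for an Xbp1 motif with 98 enriched genes at a score of 1.72 (q-value 0.009) and a mature plasma cell set with 306 enriched genes at 1.82 (q-value 0.007). The table names sets and not genes, so it does not show whether the members were among them.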

How the data were processed

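The authors deposited 1 log2 expression value per probe set for 8 Affymetrix MoGene 1.0 ST arrays. Per the submitters' processing notes the tools were RMA, Partek 6.4 and Affymetrix Power Tools. For the probe sets, genome build and annotation release were not given in the sources used here. Batch means differed by at most 6e-05, so the deposited log2 values came with batch means removed. The authors' deposited table holds a normalized enrichment score, a nominal p-value and a q-value per gene set, per the file headers, and is only quoted.

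Of 23442 probe sets, 18154 had 1 gene symbol in the platform annotation, 1559 several and 3729 none here. Differences and interactions were fitted in R 4.3.3 with limma 3.58.1 (batch and group, 5 residual degrees of freedom), without a filter on dim probe sets, with Benjamini-Hochberg adjustment over the 18154 at 0.05. No label ties an array to a named animal, and the p-values reflect only the spread among these 8 samples. The scripts were tested on simulated data. A gene with several probe sets, other than a member, is represented by the brightest.

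Members, 10 pathway lists and 11 marker lists were chosen with earlier results of these data known. Named genes are all members, the 3 of smallest p per pathway list, the first markers of lists where needed, and the 5 nearest profiles to Kdelr3 and to Hspa5. Others are said to be chosen after their values were seen. Promoters are RefSeq's for GRCm38.p6. Alternatives were no batch term, a replicate block, quantile normalization, median centring, an intensity trend, array weights, a level filter, all probe sets, each array left out and each batch alone.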

Additional observations from a re-analysis of the deposited data

Results flagged for a closer look

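Hspa5 in SS replicate 3, at 10.53, lay apart from the other SS arrays, at 10.78, 10.81 and 10.83. Its gap to the nearest of them was 0.831 of the group's range, just past Dixon's critical value for 4 arrays. The check was run on 20 groups, and chance flags about 1 in 20.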

How the results depend on the processing

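The signs of Kdelr3, Sdf2l1, Hspa5, Pdia6 and Calr held in 16 of 16 alternatives. Kdelr3 ranged from 0.475 with array weights to 0.555 without SS replicate 2. The sign turned in 5 alternatives for Canx, 3 for Kdelr1 and 1 each for Hsp90b1 and Pdia4, and Kdelr1 moved to 0.131 in batch 1 alone and -0.164 in batch 2 alone. The median over members was 0.0171 without AA replicate 3 and 0.219 without AA replicate 4, a range that covers every array left out, and 0.158 without AA replicate 2. Between 7 and 9 members were higher in AA across alternatives, and 0 passed the adjusted threshold of the interaction in limma.

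Of the pathway genes, 0 passed limma's adjusted threshold, with 31 at an unadjusted p under 0.05, and 4 passed with array weights (Plod2, Rcn3, Serpinh1 and Sparc), where weights ran from 0.273 for SS replicate 1 to 11.5 for SS replicate 2. The 31 higher at an unadjusted p became 11 in batch 1 alone and 16 in batch 2 alone, with fewer arrays, and 21 to 37 in the other alternatives. The 0 lower became 2 with quantile normalization, 3 with array weights, 7 in batch 2 alone, and 0 to 3 over arrays left out, with 3 without AA replicate 1 and 3 without SS replicate 1. The cause was not tested.

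Over all probe sets, 977 were higher and 490 lower at an unadjusted p. Array weights gave 1602 and 1396, with 103 and 74 past adjustment against 0 and 0, no batch term 1294 and 751, quantile normalization 953 and 781, leaving out SS replicate 1 1013 and 1121, leaving out SS replicate 2 657 and 322, leaving out SS replicate 4 585 and 325, and batch 2 alone 958 and 1408.

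Whether replicate numbers pair the samples could not be decided. Same-numbered arrays had correlations of -0.324, -0.0929, -0.441 and -0.215 in their deviations from group means. These arrays share a batch, and with batch means removed the deviations within a batch cancel, which pulls such correlations below 0. The replicate block gave a member median of 0.104 and 25 pathway genes higher. The 8 arrays limit the precision, and the dim Pdia4 probe set bears little weight.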
